A study of Caenorhabditis elegans with 8 samples.

Results

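The AC8 genes are 6 genes of the cosmid clone AC8, on the X chromosome of Caenorhabditis elegans, which were chosen from the small RNA counts of this study because they form pairs with identical counts and carry abundant small RNAs. They are AC8.3, AC8.4, AC8.7, AC8.10, AC8.11 and AC8.12, 6 of the 1937 genes in the deposited gene table, and all 6 passed the filter on low counts. Their counts paired AC8.3 with AC8.10, AC8.7 with AC8.12 and AC8.4 with AC8.11, so each pair was treated as 1 measurement and the 6 genes gave 3 measurements. A number given for a pair is the number that the table lists for each of its genes. No source used here says whether a read was entered under both genes, so the separate level of each copy is unknown and adding the copies could count the same reads again.

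The study sequenced small RNAs from whole young adult worms of 2 genotypes, to ask how siRNAs made from an exogenous trigger differ between them. The mutant carries rde-12(hj41), a mutation in the gene of the DEAD-box helicase RDE-12, and the wild type is N2; other alleles are not named in the labels. All libraries used here came from synchronised worms kept for 50 h at 20 °C on OP50, the usual bacterial food, without an RNAi trigger. There were 2 libraries of rde-12(hj41) and 2 of N2, which the labels call biological samples, and the other 4 of the 8 libraries of the series, from worms on bacteria with a sel-1 trigger, were not analysed here. Per the labels, the RNA was size-selected on a gel at 20 to 26 nt and treated with TAP, which makes RNAs with a triphosphate end available for cloning. A single allele stands for the mutant, and counts for rde-12 itself were not analysed here, so the mutation was not checked in these libraries. In whole animals, fewer cells that make a small RNA and less of it per cell cannot be told apart.

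In worms, RNA-dependent RNA polymerases copy targeted transcripts into short antisense RNAs with a triphosphate end, which worm-specific Argonaute proteins carry to matching transcripts. Such small RNAs act on foreign sequences, on duplicated genes, on pseudogenes and on many germline genes. A small RNA that matches 2 identical copies cannot be placed in either of them from its sequence alone.

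The 6 genes lie in 2 copies of the same arrangement. In the RefSeq gene table and the Ensembl annotation of assembly WBcel235, clone AC8 holds 13 neighbouring genes on X, of which 7 are pseudogenes, 4 are protein-coding and 2 are microRNA genes. The first copy runs AC8.4, the microRNA gene AC8.13, AC8.3 and AC8.7, and the second runs AC8.11, the microRNA gene AC8.8, AC8.10 and AC8.12. Only the 6 members are among the genes tested here. The left ends of AC8.4 and AC8.11 are 9416 nt apart, and the left ends of AC8.3 and AC8.10, of AC8.7 and AC8.12 and of the microRNA genes are also 9416 nt apart. Each copy spans 4715 nt from its first gene to its last. The left end of pseudogene AC8.9, just after the first copy, is again 9416 nt from that of AC8.1, just after the second. These 2 do not share an exon structure, since AC8.9 has 3 exons and AC8.1 has 9. No member overlaps another annotated gene of the clone. No source used here names the genome build of the counts, so positions on the chromosome are not printed.

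**Figure D1:**
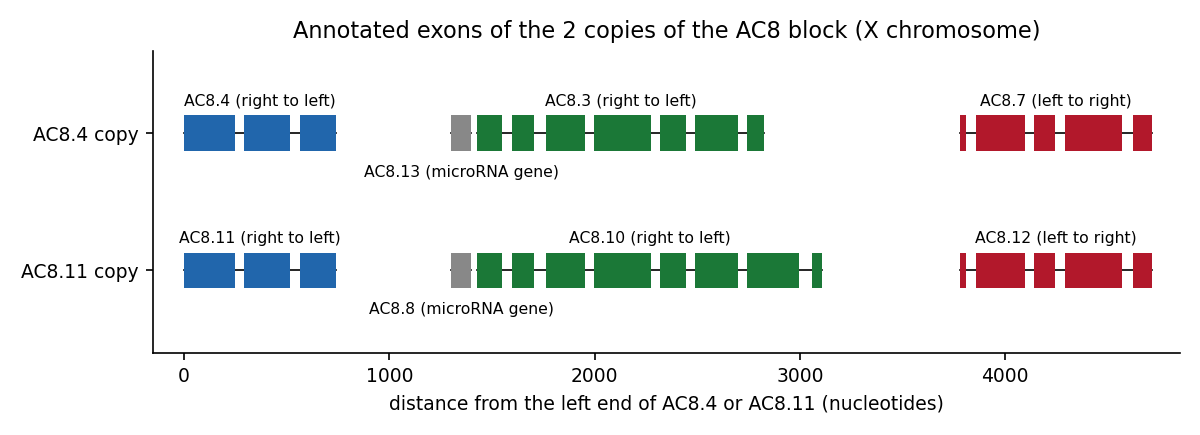
Annotated exons of both copies of the AC8 block, as distance in nucleotides from the left end of AC8.4 (upper row) or AC8.11 (lower row). Boxes are exons, thin lines are introns and colours mark the genes that share counts; the 2 rows line up except at the right end of the green genes, where AC8.10 reaches further than AC8.3.

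The paired genes share exon structure as well as counts. AC8.4 and AC8.11 are protein-coding genes of 3 exons and 654 nt of exon each, on the minus strand, with the same exon lengths. AC8.7 and AC8.12 are pseudogenes of 5 exons and 744 nt each, on the plus strand, again with the same exon lengths. AC8.3 and AC8.10 are protein-coding genes on the minus strand whose last 6 exons have the same lengths (210, 127, 280, 193, 111 and 123 nt). They differ at the start: AC8.3 has 1 further exon of 81 nt, and AC8.10 has 2, of 53 and 253 nt. AC8.10 therefore has 1350 nt of exon and AC8.3 has 1125 nt, yet the table lists the same count for both in all 4 libraries. Equal lengths are not a comparison of sequence, which was not made here, and the gene models used for counting are not named in the sources used here. The tables used here give none of the 6 genes a name or function beyond its ID.

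AC8.3 and AC8.10 carried by far the most small RNAs of the 3 pairs. Their count was 48445 and 38281 in the rde-12 libraries and 36778 and 35126 in the N2 libraries. Scaled to the library (CPM, the share of the summed gene counts on the usual scale of that unit, with TMM factors), the levels were 8917 and 8760 CPM in rde-12 and 8943 and 8138 CPM in N2. The pair held rank 13 of 1922 measurements in each of the 4 libraries.

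AC8.7 and AC8.12, the pseudogenes, had a count of 14500 and 11896 in the rde-12 libraries and of 8614 and 8961 in the N2 libraries. These correspond to 2669 and 2722 CPM in rde-12 and to 2095 and 2076 CPM in N2. Both rde-12 libraries were above both N2 libraries, and the libraries of each genotype were close to each other. The pair held ranks 80 and 72 in the rde-12 libraries and ranks 115 and 113 in the N2 libraries.

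AC8.4 and AC8.11 had a count of 11251 and 9065 in the rde-12 libraries and of 8339 and 8248 in the N2 libraries. Their levels were 2071 and 2074 CPM in rde-12 and 2028 and 1911 CPM in N2. The libraries did not overlap here either, but the rde-12 libraries stood only just above N2 replicate 1. High counts were part of the choice of these genes, so the levels and ranks are a description.

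**Figure D2:**
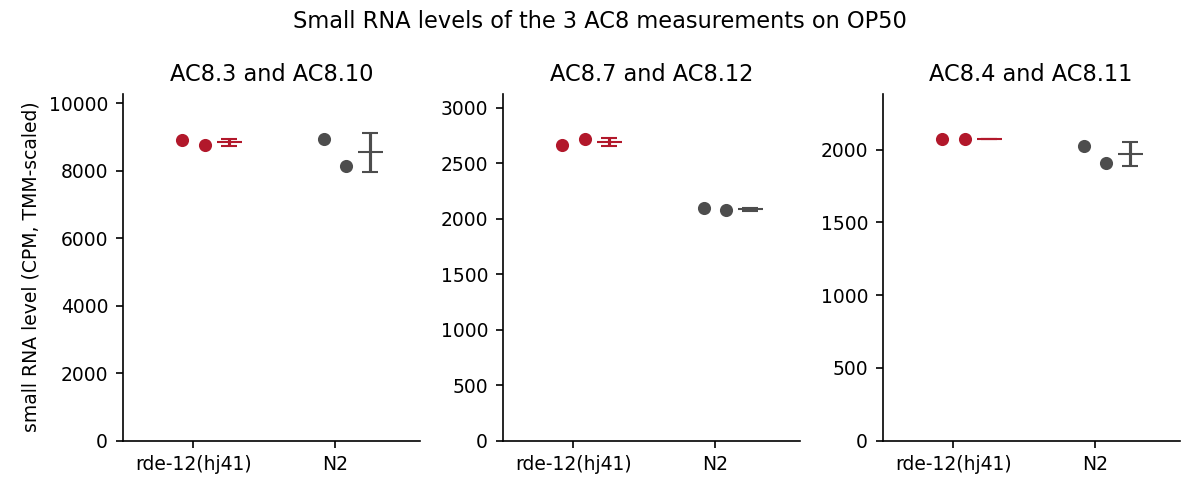
Small RNA level (CPM, TMM-scaled, axes from 0) of each AC8 measurement, rde-12(hj41) on the left and N2 on the right. Points are the 2 libraries of a genotype and the bar beside them is their mean ± SD; for AC8.7 and AC8.12 both rde-12 libraries (2669 and 2722 CPM) lie well above both N2 libraries (2095 and 2076 CPM).

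Levels of different genes are compared per length of exon, with the lengths of the WBcel235 annotation. AC8.3 held 7856 ± 98.5 CPM per kb in rde-12 and 7591 ± 506 CPM per kb in N2 (mean ± SD, n = 2 each). With the longer exons of AC8.10, the same counts came to 6547 ± 82.1 CPM per kb in rde-12 and 6326 ± 422 CPM per kb in N2. AC8.7 and AC8.12 held 3623 ± 50.7 CPM per kb in rde-12 and 2803 ± 17.6 in N2. AC8.4 and AC8.11 held 3169 ± 3.83 CPM per kb in rde-12 and 3011 ± 126 in N2. Per kb, AC8.3 and AC8.10 were thus highest in both genotypes under either length. AC8.7 and AC8.12 stood above AC8.4 and AC8.11 in rde-12, and below them by more than 1 SD in N2. This order rests on the annotated lengths: in CPM, without lengths, AC8.7 and AC8.12 were above AC8.4 and AC8.11 in both genotypes.

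Small RNAs of the pseudogenes AC8.7 and AC8.12 rose in rde-12, while those of the 4 protein-coding members did not pass the test. A call in 1 pair and none in the others is not a test of a difference between the pairs, or between pseudogenes and protein-coding genes. The level of AC8.7 and AC8.12 averaged 2696 ± 37.7 CPM in rde-12 and 2085 ± 13.1 CPM in N2 (mean ± SD, n = 2 each), which is 1.29-fold higher. The log2 change was 0.37 ± 0.0533 (SE), with a 95% interval from 0.26 to 0.49 and an adjusted p of 0.000128 in edgeR's quasi-likelihood test with Benjamini-Hochberg adjustment over all 1922 measurements. AC8.3 and AC8.10 averaged 8838 ± 111 CPM in rde-12 and 8540 ± 569 CPM in N2. Their log2 change was 0.05 ± 0.0639 (interval −0.09 to 0.19, edgeR adjusted p = 0.606), and its sign turned without N2 replicate 2 (−0.010). AC8.4 and AC8.11 averaged 2073 ± 2.51 CPM in rde-12 and 1969 ± 82.6 CPM in N2. Their log2 change was 0.07 ± 0.0551 (interval −0.04 to 0.19, edgeR adjusted p = 0.351). For both uncalled pairs the interval leaves room for a small change in either direction, up to 0.19 on the log2 scale.

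The members' count stands against many calls in the whole table. Of the 3 AC8 measurements 1 rose and 0 fell, where 14.1% of all measurements rose (271 of 1922) and 13.8% fell (265 of 1922), 27.9% in either direction. At an unadjusted p under 0.05 the AC8 count was also 1 rise and 0 falls, where 19.7% of all measurements were higher and 19.6% lower. Scaled by library totals 338 rose and 220 fell, and with upper-quartile factors 377 rose and 191 fell. Without rde-12 replicate 1 there were 180 rises in place of 271. DESeq2 also called AC8.7 and AC8.12 higher (log2 change 0.38, adjusted p = 7.42e-11) and not the other pairs, where it called 10.6% of measurements higher (205) and 8.09% lower (156). In 2 of the 3 AC8 measurements both libraries of one genotype lay above both of the other, against 63.8% of all measurements. The rise of AC8.7 and AC8.12 was the 110th largest of the 271. It kept its call under each of the 10 alternatives, with a log2 change between 0.36 and 0.43 and adjusted p-values in edgeR and DESeq2 between 7.42e-11 and 0.00189.

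**Figure D3:**
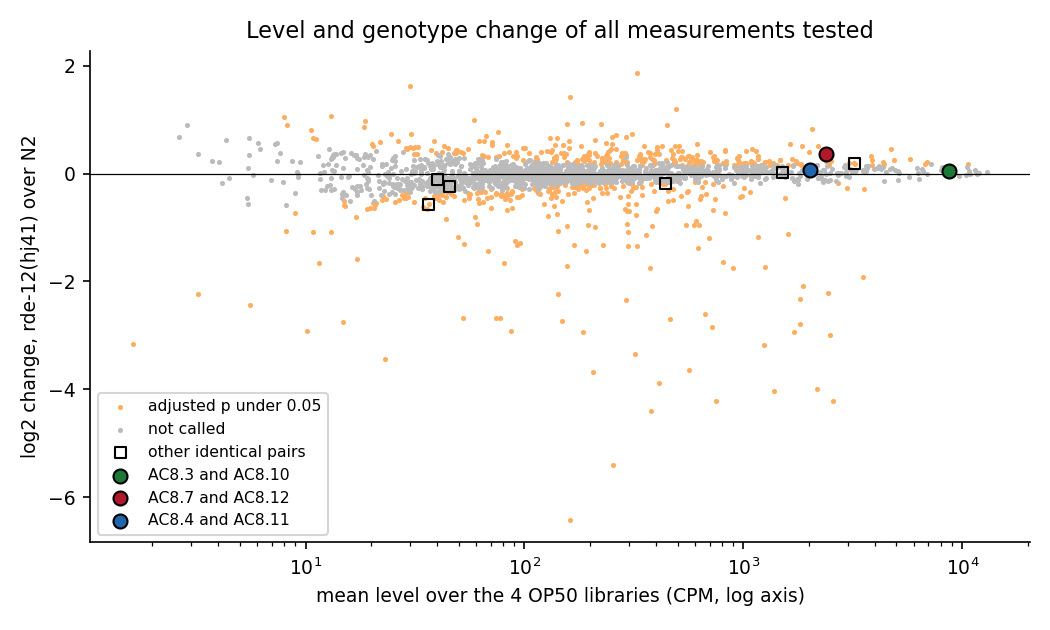
Log2 change of rde-12(hj41) over N2 against the mean level (CPM, log axis) for the 1922 measurements tested. Large coloured points are the 3 AC8 pairs, open squares the other 6 pairs with identical counts; AC8.3 and AC8.10 (log2 change 0.05) and AC8.4 and AC8.11 (0.07) lie near 0, and AC8.7 and AC8.12 (0.37) lie above them at a level close to that of AC8.4 and AC8.11.

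Ratios between the pairs within a library, which do not depend on depth or scaling, restate the same difference from the same counts. There were 1.29 and 1.31 counts for AC8.7 and AC8.12 per count for AC8.4 and AC8.11 in the rde-12 libraries, and 1.03 and 1.09 in the N2 libraries. The ratio was 1.23-fold higher in rde-12. For each count of AC8.7 and AC8.12 there were 3.34 and 3.22 counts of AC8.3 and AC8.10 in rde-12 and 4.27 and 3.92 in N2. That ratio was 1.25-fold lower in rde-12. Neither ratio overlapped between genotypes. The two-sided exact permutation test gave its smallest possible p for 2 libraries against 2, 0.33, for each (0.5 adjusted over the 3 ratios). A lack of overlap was common: 63.8% of all measurements did not overlap in CPM, and the share among ratios in general was not computed. AC8.3 and AC8.10 had 4.31 and 4.22 counts per count of AC8.4 and AC8.11 in rde-12 and 4.41 and 4.26 in N2, which overlapped (exact permutation p = 0.667, adjusted 0.667).

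**Figure D4:**
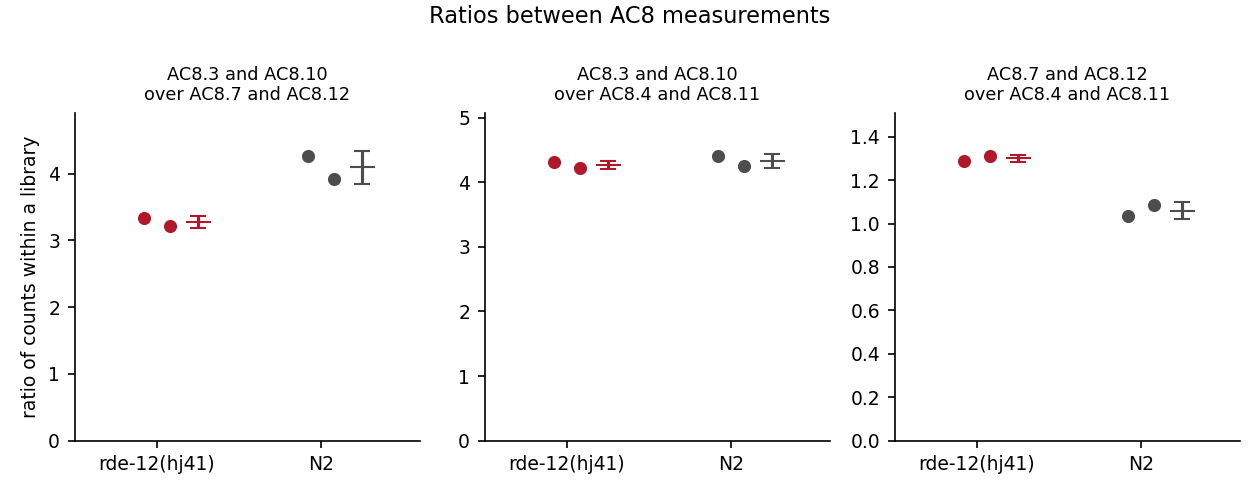
Ratio of counts between AC8 measurements within a library (axes from 0), rde-12(hj41) on the left and N2 on the right; points are libraries and bars are mean ± SD (n = 2 each). The ratios that involve AC8.7 and AC8.12 separate the genotypes, and the ratio of AC8.3 and AC8.10 to AC8.4 and AC8.11 lies between 4.22 and 4.41 in all 4 libraries.

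With each pair entered once, the 3 measurements made up 1.36% and 1.39% of the summed gene counts in the rde-12 libraries and 1.28% and 1.21% in the N2 libraries. The Wilson 95% intervals ran from 1.35% to 1.37% and from 1.38% to 1.398% in rde-12, and from 1.27% to 1.29% and from 1.20% to 1.23% in N2. The intervals hold only the error of counting, and reads that carry no molecular identifier need not be independent molecules. The mean share was 1.37% ± 0.0194 in rde-12 and 1.25% ± 0.0466 in N2 (SD, n = 2 each; exact permutation p = 0.33), a difference of 0.125 percentage points. Within the AC8 counts, AC8.7 and AC8.12 made up 19.8% ± 0.380 in rde-12 and 16.6% ± 0.771 in N2. AC8.3 and AC8.10 made up 64.96% ± 0.477 in rde-12 and 67.8% ± 0.941 in N2. AC8.4 and AC8.11 made up 15.2% ± 0.0974 in rde-12 and 15.6% ± 0.170 in N2.

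The AC8 pairs share features with groups that can serve as a measure. Of 185 measurements of other X genes, 63 rose (34.1%) and 33 fell (17.8%), with a median log2 change of 0.16, against a median of −0.02 over all 1922. The log2 change of AC8.7 and AC8.12 (0.37) was above that median, with 35 of the 185 higher still, while those of AC8.3 and AC8.10 (0.05) and of AC8.4 and AC8.11 (0.07) were below it. Of 85 other pseudogenes 15 rose (17.6%) and 20 fell (23.5%), where 14.1% of all measurements rose and 13.8% fell. The median log2 change of these pseudogenes was 0.00, and 1 of them had a larger log2 change than AC8.7 and AC8.12. This was C09G1.3, also on X, at 166 ± 1.05 CPM in rde-12 and 127 ± 5.19 in N2 (log2 change 0.38, edgeR adjusted p = 0.00073). Among the 109 other measurements with a mean level at least that of AC8.4 and AC8.11, 22 rose (20.2%) and 8 fell (7.34%). Of these 109, 3 had a larger log2 change than AC8.7 and AC8.12. These groups were set after the values were seen, and no difference from them was tested.

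The nearest tested genes on either side of the clone had lower levels in CPM than the AC8 pairs. Y73B3B.3, before the clone, had 158 ± 6.21 CPM in rde-12 and 141 ± 2.37 in N2 (log2 change 0.16, edgeR adjusted p = 0.0996). C04E7.3, after the clone with 17 annotated genes between, had 50.6 ± 7.76 CPM in rde-12 and 40.5 ± 2.64 in N2 (log2 change 0.31, edgeR adjusted p = 0.0887). Neither passed the test. Both were picked by position, whereas the AC8 genes were chosen in part for high counts. The levels here are also not per length of exon, so the lower levels of the neighbours are a description.

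Another 6 pairs in the table, 12 genes, had identical counts in all 4 libraries, and the AC8 pairs stand among the most abundant of them. Since the AC8 genes were chosen in part for high counts, this standing is a description. F07B7.1 and W09B7.1 had 3426 ± 163 CPM in rde-12 and 3015 ± 9.17 in N2, above the level of AC8.7 and AC8.12. F07B7.2 and W09B7.2 had 1517 ± 62.2 CPM in rde-12 and 1487 ± 23.2 in N2. The other 4 pairs were lower, from 29.3 to 411 CPM in rde-12 and from 41.6 to 467 CPM in N2. All 6 pairs lie on a single chromosome each, 5 on V and 1 on IV, whereas the AC8 pairs lie on X.

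Fixed spacing was also found outside AC8. The copies of F07B7.1 and W09B7.1 and those of F07B7.2 and W09B7.2 are 42094 nt apart in both cases, with identical exon lengths. C01B4.7 and Y19D10A.4 share a spacing of 108279 nt with C13B7.6 and Y45G12C.16, also with identical exon lengths. Y59E9AR.2 and Y59E9AR.8 have identical exon lengths but lie on opposite strands. H12D21.2 and ZC412.9 differ in their exon lengths, with 1328 and 591 nt of exon. AC8 was the block with the most pairs in this table, with 3 at 1 spacing against 2 at each of the other repeated spacings.

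Of these 6 pairs, 1 rose, 2 fell and 3 did not pass the test, where 14.1% of all measurements rose and 13.8% fell. The median log2 change of the 6 pairs was −0.14. F07B7.1 and W09B7.1 rose (log2 change 0.18 ± 0.0570, edgeR adjusted p = 0.0273), C01B4.7 and Y19D10A.4 fell (−0.18 ± 0.0561, 0.0252) and Y59E9AR.2 and Y59E9AR.8 fell (−0.57 ± 0.124, 0.00386). Without rde-12 replicate 1, N2 replicate 1 or N2 replicate 2 the call of F07B7.1 and W09B7.1 ended (edgeR adjusted p between 0.13 and 0.188). That of C01B4.7 and Y19D10A.4 ended without either rde-12 library, without N2 replicate 2, with upper-quartile factors and with DESeq2 (adjusted p between 0.0665 and 0.169). H12D21.2 and ZC412.9 passed as a fall without rde-12 replicate 2 (log2 change −0.53, edgeR adjusted p = 0.00207). The call of AC8.7 and AC8.12 did not end under any of these settings. In the F07B7 and W09B7 block, as in AC8, 1 pair was called and the pair beside it was not: F07B7.2 and W09B7.2 had a log2 change of 0.03 ± 0.0549 (edgeR adjusted p = 0.736).

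**Figure D5:**
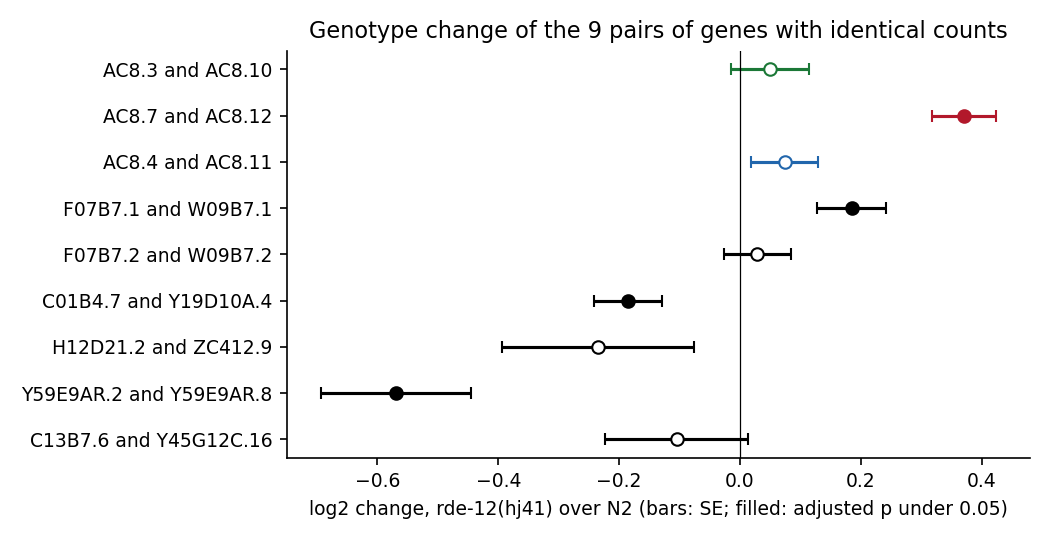
Log2 change of rde-12(hj41) over N2, with its SE, for the 9 pairs of genes with identical counts; the 3 AC8 pairs are the top rows and filled points passed the test. AC8.7 and AC8.12 have the highest log2 change (0.37) and Y59E9AR.2 and Y59E9AR.8 the lowest (−0.57).

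The measurements most like each AC8 pair, by the distance between log2 CPM values over the 4 libraries, were picked by level and pattern together. For AC8.3 and AC8.10 they were B0303.7 (distance 0.16), F02C12.3 (0.24) and the nuclear hormone receptor gene nhr-88 (K08A2.5; 0.25). None of these passed the test, with log2 changes of 0.08, 0.13 and 0.07. F02C12.3 did pass in edgeR with library totals (adjusted p = 0.00682), upper-quartile factors (0.0382), the replicate block (0.0285) and without rde-12 replicate 2 (0.00836), and B0303.7 with library totals (0.0411). For AC8.4 and AC8.11 they were F44F1.4 (0.095), H28G03.4 (0.13) and Y73B6BL.16 (0.19), with log2 changes of 0.05, 0.05 and 0.01, and none passed. For AC8.7 and AC8.12 they were jmjc-1 (T28F2.4; 0.16), fbxa-149 (Y38H6C.10; 0.17), an F-box gene annotated as a pseudogene, and F58D5.3 (0.20). All of these rose, with log2 changes of 0.23, 0.33 and 0.20, each below the 0.37 of AC8.7 and AC8.12. The edgeR call of jmjc-1 ended without rde-12 replicate 1 (adjusted p = 0.0503) and without N2 replicate 2 (0.0963), and that of F58D5.3 without N2 replicate 2 (0.207). The distance takes in the difference between genotypes as well as the level. Measurements this close to AC8.7 and AC8.12 were therefore picked in part for being higher in rde-12. That they rose is a description.

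Listed targets of 2 classes of small RNA can be set beside these changes as a description. ERGO-1 is an Argonaute that starts the silencing of a set of recently duplicated or poorly conserved genes. Of 19 tested genes listed as its targets 17 fell and 0 rose, where 13.8% of all measurements fell and 14.1% rose. The median log2 change of the 19 was −2.70. T08B6.2, a pseudogene, fell most (11.7 ± 0.929 CPM in rde-12 and 495 ± 33.9 in N2, log2 change −5.41, edgeR adjusted p = 2.13e-14), and C18D4.6 (0.06) and T05E12.8 (−0.13) did not pass. Of 4 genes listed as targets of the worm-specific Argonautes (WAGO targets) 0 were called by edgeR or DESeq2 and 0 had an unadjusted p under 0.05 in edgeR; the median log2 change was 0.06. They included C38D9.2 (0.08) and bath-13 (F40B1.1; −0.05). No AC8 pair had a log2 change below 0 in the fit over all 4 libraries. Both lists came from general knowledge and from results of these data, so their counts of calls were partly built in. No difference between the AC8 genes and either list was tested.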

How the data were processed

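Small RNA libraries were compared on OP50, 2 of rde-12(hj41) and 2 of N2. The authors deposited raw counts (whole numbers, 1 column a library) for each gene, per the file headers. The submitters' processing notes list TopHat 1.4.1, SAMtools and bedtools. Not given in the sources used here are the build, the gene models, the strand, the rule for reads that match several places and how genes were selected. Each of these could move counts between similar genes.

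The table has 1959 rows, of which 22 repeat a gene with the same values, leaving 1937 genes. Genes with different IDs and identical counts in all 4 libraries (18 genes in 9 pairs) were merged, giving 1928 measurements. These summed to 5458439 and 4272264 in rde-12 and to 4195299 and 4307977 in N2. They are a selection of genes, so the totals are not whole-library depths. edgeR 4.0.16 in R 4.3.3 gave the quasi-likelihood test, after filterByExpr had removed 6 measurements, with TMM factors of 0.98 to 1.02 and a threshold of 0.05. A standard error is the size of the log2 change over the square root of F. Alternatives used DESeq2 1.42.0, library totals, upper-quartile factors, no filter, separate rows for paired genes, a replicate block and each library left out. The edgeR p-values rest on the spread between the 2 libraries a group and on spread shared across all measurements tested. They do not rest on the libraries of 1 gene alone. The chi-square per degree of freedom between the 2 libraries of a genotype was 4.12 in rde-12 and 3.46 in N2, more than counting noise gives. Separate libraries made from 1 RNA sample could also exceed counting noise, so this check cannot tell whether the replicates were separate samples.

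Names and neighbours came from a RefSeq gene table (1900 IDs matched) and exon lengths from Ensembl release 115, both of WBcel235. The named genes are the 6 members, the other identical pairs, the 3 nearest measurements to each AC8 pair and up to 2 genes of each list, with others named where a small count called for it. Members, lists and tests were chosen with earlier results of these data known.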

Additional observations from a re-analysis of the deposited data

How the results depend on the processing

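The log2 change of AC8.7 and AC8.12 was called in all 10 alternatives. That of AC8.3 and AC8.10 was called in 0 and turned to −0.010 without N2 replicate 2 (range with a library left out −0.010 to 0.12). That of AC8.4 and AC8.11 was called in 0, with values between 0.04 and 0.13. The counts of all calls moved past 1.5 times for falls with DESeq2 (156) and for rises without rde-12 replicate 1 (180). With a library left out rises ran from 180 to 305, and falls, within 1.5 times of 265, from 181 to 303. With each paired gene counted on its own, the AC8 share was 2.69% in rde-12 and 2.45% in N2, and the difference 0.242 percentage points in place of 0.125. Among other named genes the sign turned for F07B7.2 and W09B7.2 (−0.014, up to 0.075 with another library left out) and for H12D21.2 and ZC412.9 (0.048, down to −0.53) without rde-12 replicate 1, for Y73B6BL.16 (−0.014, up to 0.043) without N2 replicate 2 and for bath-13 (F40B1.1; 0.0070) with upper-quartile factors. The cause was not tested. The labels give the genotypes the same replicate numbers. Same-numbered libraries did not deviate together over all measurements (correlation 0.031 over 1922 measurements). Counting noise lowers such a correlation, so this check cannot tell whether they share a batch. With the replicate block 323 measurements rose and 301 fell, and the log2 changes were 0.37 for AC8.7 and AC8.12, 0.05 for AC8.3 and AC8.10 and 0.07 for AC8.4 and AC8.11, with no AC8 call changed. With 2 libraries a group the exact permutation test cannot go below 0.33.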
